A study of Mus musculus with 16 samples.

Results

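In pre-osteoblasts of the mouse line MC3T3-E1, 932 RUNX2 peaks lay at a promoter and were still called after the cells had been differentiated. They are named kept promoter sites here. A RUNX2 peak of undifferentiated cells was counted when it overlapped a RUNX2 peak of differentiated cells by at least 1 bp and its centre was within 1 kb of a transcription start of a protein-coding gene. The 932 sites were 7.36% of the 12661 RUNX2 peaks of undifferentiated cells outside the mitochondrial genome. Of all those peaks, 4616 (36.5%) were kept. Of the 3280 peaks at promoters, 28.4% were kept (95% interval 26.9 to 29.99) and the other 2348, named lost promoter sites, had no overlapping peak in differentiated cells. The sites were chosen by the RUNX2 peaks of both states and by the distance to the start, so these counts describe the choice and are not a result.

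The study mapped 2 transcription factors, RUNX2 and C/EBPβ, and 5 histone modifications by chromatin immunoprecipitation and sequencing. The differentiated group had been cultured for 15 days with ascorbic acid at 50 µg/mL and glycerol-2-phosphate at 10 mM, and its mineralised matrix was taken off before the chromatin was made. The undifferentiated group had none of this medium. Every list used was from cells of passages 5 to 12 that received only the ethanol vehicle, for 3 h. MC3T3-E1 is an established line, so both groups model a line grown on plastic, not bone. Each antibody had 1 merged list in each state. There were therefore no replicates to compare, the read depth is unknown, no p-value was computed, and intervals cover counting error only.

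RUNX2 is the runt-domain transcription factor that osteoblasts need in order to form. It binds DNA at TGTGGTT and close variants together with its partner CBFβ. Many mammalian promoters lie in CpG islands, stretches rich in the dinucleotide CG that are usually free of methylation and bound by SP/KLF, ETS, NF-Y and NRF1 factors. H3K4me3 marks active starts, H3K9Ac and H4K5Ac mark active regulatory DNA, H3K4me1 marks enhancers and the flanks of promoters, and H3K36me3 is laid down over transcribed gene bodies.

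The RUNX motif stood as a pair at the kept promoter sites of all 3 Runx genes, and these sequences are shown first for that reason. Runx1 is the family member needed for blood formation, Runx2 the bone regulator itself, and Runx3 a relative with roles in cartilage, neurons and T cells. Each 30-base stretch is given in the direction of its gene, in mm9 coordinates, with the reverse complement of TGTGGTT in capitals.
Runx1, chr16:92826270-92826299, minus strand: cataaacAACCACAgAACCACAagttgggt
Runx2, chr17:44951532-44951561, minus strand: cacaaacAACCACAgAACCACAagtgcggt
Runx3, chr4:134676418-134676447, plus strand: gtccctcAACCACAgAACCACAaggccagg
The copies were 8 bp apart from start to start in each gene, and the pair had the same orientation to transcription in all 3. The middle of the pair was 26 bp downstream of the nearest annotated start in Runx1, 17 bp upstream in Runx2 and 135 bp upstream in Runx3. The longest run that 2 of these peaks shared was 22 bp for Runx1 and Runx2, and 18 bp for Runx3 with either. No other kept promoter site had such a pair, which makes 3 of 932. It occurred at 1 of 2348 lost promoter sites, near Sun1, in 7 of 3684 kept peaks away from promoters, and in 3 of 22350 windows of the width of a peak centred on the outermost start of each gene, those of Card6, Olfr24 and Runx1. The pair was searched for after these sequences had been read.

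The kept promoter sites that follow are examples of different sequence make-up. Those of Spp1, Ltbp1 and Lmna were picked from sites that hold TGTGGTT, as 16.6% of the 932 sites do, so the examples do not mirror the class. Spp1 encodes the bone matrix protein osteopontin, Ltbp1 a protein that holds latent TGFβ in the matrix, and Lmna the nuclear lamins A and C. Their sequences are on the plus strand with each TGTGGTT or its reverse complement in capitals. Fzd7, a Wnt receptor gene, is an example picked from the 552 CpG-rich sites that lack TGTGGTT. Its capitals mark GGGCGG, the SP/KLF motif, or its reverse complement, which 303 of those 552 sites (54.9%) held.
Spp1, chr5:104863915-104864115, plus strand: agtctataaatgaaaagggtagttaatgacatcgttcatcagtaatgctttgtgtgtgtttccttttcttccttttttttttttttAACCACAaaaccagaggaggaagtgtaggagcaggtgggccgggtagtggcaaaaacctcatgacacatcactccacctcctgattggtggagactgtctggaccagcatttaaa
Ltbp1, chr17:75577932-75578132, plus strand: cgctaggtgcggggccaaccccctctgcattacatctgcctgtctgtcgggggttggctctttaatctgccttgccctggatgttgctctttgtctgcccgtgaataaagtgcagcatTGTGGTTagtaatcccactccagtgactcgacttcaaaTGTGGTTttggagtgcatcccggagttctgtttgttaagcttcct
Lmna, chr3:88314059-88314259, plus strand: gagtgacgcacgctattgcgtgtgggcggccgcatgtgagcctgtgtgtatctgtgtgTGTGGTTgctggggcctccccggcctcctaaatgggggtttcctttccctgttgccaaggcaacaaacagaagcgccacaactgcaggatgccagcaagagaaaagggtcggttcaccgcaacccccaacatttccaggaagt
Fzd7, chr1:59538793-59538990, plus strand: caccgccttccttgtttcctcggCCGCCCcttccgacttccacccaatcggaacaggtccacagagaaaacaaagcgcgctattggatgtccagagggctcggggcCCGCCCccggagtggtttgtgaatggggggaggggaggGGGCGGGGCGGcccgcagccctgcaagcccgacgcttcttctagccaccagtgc
The motif of Spp1 was 11 bp from the centre of its peak, and those of Ltbp1 were 21 and 59 bp away. The Ltbp1 site was 118 bp from an inner start of the gene and 173124 bp from its outermost start. At Fzd7 the last 3 bases of the peak lay in the first exon and are left out.

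Facts of the whole series that touch these sites are few. RUNX2 had 6272 peaks in differentiated cells and 12661 in undifferentiated cells, and C/EBPβ had 10847 in differentiated and 15622 in undifferentiated cells. All RUNX2 and C/EBPβ peaks had the same fixed width. H3K4me3 regions numbered 8194 in differentiated cells and 6920 in undifferentiated cells, and H3K9Ac regions 23669 in differentiated and 14973 in undifferentiated cells. Of 9 osteoblast markers, H3K4me3 reached a start of 5 in each state, Runx2, Col1a1, Col1a2, Spp1 and Sparc in differentiated cells and Runx2, Sp7, Col1a1, Col1a2 and Sparc in undifferentiated cells. Alpl and Bglap had no H3K36me3 in either state. None of the adipocyte, muscle, endothelial, haematopoietic or neural markers had H3K4me3 in either state, whereas the chondrocyte marker Sox9 had it in both, the osteocyte marker Pdpn had it in differentiated cells, and 2 of 5 haematopoietic markers carried H3K36me3 in both. In the longer lists of these cell types, H3K4me3 was at 4 of 12 chondrocyte genes in differentiated and 2 in undifferentiated cells. It was at 3 of 8 osteocyte genes in differentiated and 2 in undifferentiated cells. It was also at 1 of 12 adipocyte and 1 of 12 muscle genes in each state and at 1 of 9 endothelial genes in differentiated cells.

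The kept promoter sites were chosen for overlapping a differentiated peak, so their closeness to it describes the choice and is not a result. The overlap with the differentiated peak had a median of 162 bp (quartiles 134 and 184), with a smallest value of 2 bp and a largest of the full width, and the centres were a median of 39 bp apart. At 267 sites the centres were within 20 bp, and 98 sites overlapped by less than 50% of their width. The 932 sites met 927 differentiated peaks, 5 of which covered 2 sites each. The sites of Tmem17, Fam110b and Ino80 were just inside the limit, with overlaps of 2, 6 and 14 bp. Those of Fam53a, Asxl1 and Fth1 were just outside it, with gaps of 1, 2 and 5 bp. On the distance limit, Plec, Ilk and Vezt were inside at 999, 997 and 996 bp from a start, and Lnpep, Ccdc114 and Trfr2 were outside at 1007, 1009 and 1010 bp. A further 110 lost promoter sites (4.68%) had a differentiated RUNX2 peak within 500 bp without touching it.

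Most kept promoter sites were close to the start and upstream of it, as were most lost ones. The centre of a kept promoter site was a median of 69 bp upstream of the nearest start, and that of a lost promoter site 60 bp upstream. Among kept promoter sites 70.8% were upstream, against 68.0% of lost promoter sites, a difference of 2.80 points (95% interval -0.727 to 6.22). Within 100 bp of a start were 45.8% of kept and 46.8% of lost promoter sites. Starts on both strands within 1 kb, as at a bidirectional promoter, were found at 10.8% of kept and 14.9% of lost promoter sites, and this difference of -4.11 points had an interval of -6.48 to -1.55. By centre, 50.2% of the kept promoter sites were outside protein-coding genes, 22.1% in an intron, 21.9% in an untranslated exon, 3.22% in a coding exon and 2.58% in another exon.

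**Figure D1:**
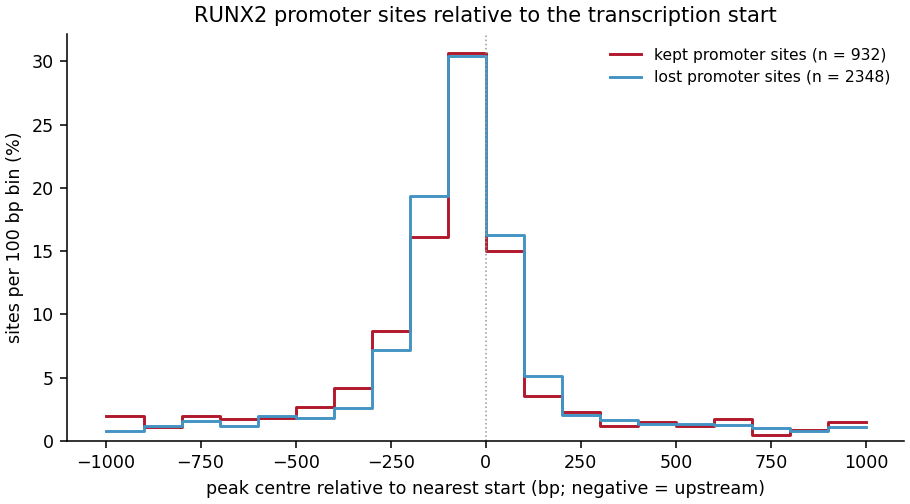
Share of sites (y axis, percent per 100 bp bin) by the distance of the peak centre from the nearest start (x axis, bp, negative upstream) for kept (red) and lost (blue) promoter sites. Both have their highest bin in the 100 bp upstream of the start, with 30.7% of the kept sites there.

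The kept promoter sites were richer in the RUNX motif and poorer in CpG-island sequence than the lost ones. TGTGGTT, searched on both strands of the whole peak, was present at 155 kept promoter sites, 16.6%, and at 10.0% of lost promoter sites, a difference of 6.62 points (95% interval 4.03 to 9.40). It was in 3.23% of the 22350 windows on gene starts and in 39.8% of kept peaks away from promoters. In windows as wide as a peak, 1 kb upstream and downstream of the centre, it occurred in 5.10% for kept and 4.43% for lost promoter sites. Of the 155 sites, 118 (76.1%) had a copy within 50 bp of the centre, and the median distance was 32 bp. The shorter TGTGGT was at 32.2% of kept and 20.6% of lost promoter sites, and in 10.1% of windows on gene starts.

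Read the other way, promoter peaks with more copies were kept more often. Of promoter peaks with 2 or more TGTGGTT, 15 of 29 were kept, 51.7% (95% interval 32.5 to 70.6). With 1 copy 38.8% of 361 were kept (33.7 to 44.0), and with none 26.9% of 2890 (25.3 to 28.5), so the intervals for 1 copy and for more overlapped. The motif went with a higher kept share in both kinds of promoter sequence. Among CpG-rich peaks, those with more than 50% GC and a CpG ratio of observed to expected over 0.6, 39.4% with the motif (31.2 to 48.1) and 25.7% without it (23.9 to 27.6) were kept. Among the remaining, CpG-poor peaks 39.9% with the motif (33.8 to 46.2) and 30.4% without it (27.1 to 33.8) were kept.

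Other motifs of promoters went both ways. CCGGAAG, bound by ETS factors, was at 16.7% of kept and 13.4% of lost promoter sites, a difference of 3.32 points (95% interval 0.644 to 6.18), beside 9.40% of windows on gene starts. GGGCGG was at 42.9% of kept and 50.1% of lost promoter sites, and the interval of the difference, -7.21 points, was -10.9 to -3.42. CCAAT, bound by NF-Y, was at 28.4% of kept and 34.1% of lost promoter sites, with a difference of -5.64 points (-9.05 to -2.11), and the windows on gene starts held GGGCGG in 40.05% and CCAAT in 27.4%. CpG-rich sequence made up 65.0% of kept and 71.6% of lost promoter sites, a difference of -6.53 points (-10.1 to -3.00), against 48.4% of windows on gene starts and 3.91% of kept peaks away from promoters. For AP-1 (TGANTCA), C/EBP (TTGCNNAA), NRF1 (GCGCATGCG), CRE (TGACGTCA), YY1 (AAGATGGC) and the TATA box (letters TATAAA) the interval of the difference included 0. The widest of these intervals on the upper side was that of AP-1, at 5.26% of kept and 3.79% of lost promoter sites, with a difference of 1.47 points (-0.0517 to 3.24). A match shows that the letters are there, not that a factor was bound.

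**Figure D2:**
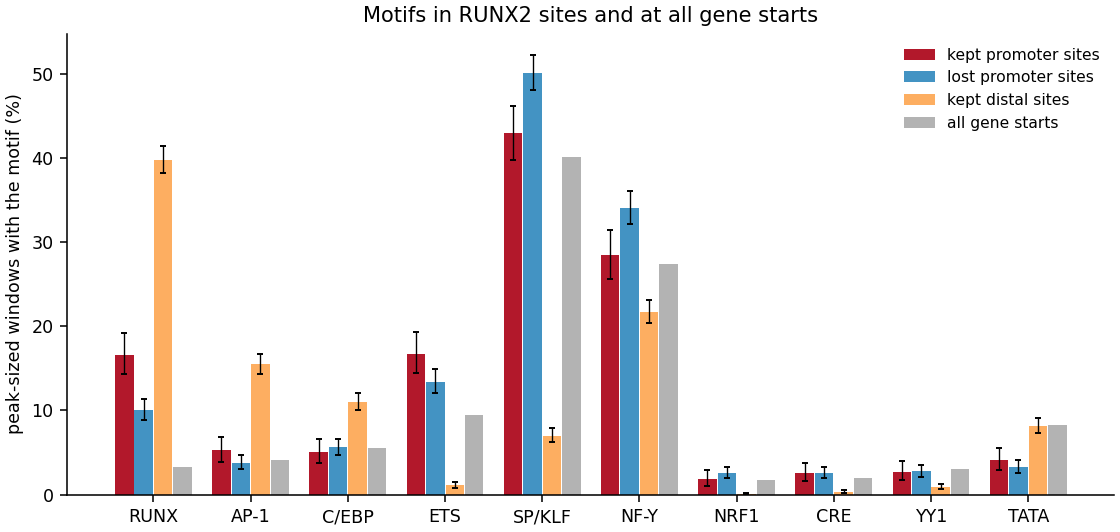
Share of windows as wide as a peak (y axis, percent) that hold each motif (x axis, by factor) among kept promoter sites (red), lost promoter sites (blue), kept peaks away from promoters (orange) and windows on the outermost start of all genes (grey), with exact 95% intervals for the peaks. The RUNX motif is at 16.6% of kept and 10.0% of lost promoter sites, and SP/KLF and NF-Y motifs are lower at the kept ones.

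Nearly all kept promoter sites were inside acetylated chromatin in both states. H4K5Ac covered 99.2% in differentiated and 99.2% in undifferentiated cells. H3K9Ac covered 98.1% in differentiated and 94.4% in undifferentiated cells, and H3K4me1 98.6% in differentiated and 95.7% in undifferentiated cells. All RUNX2 peaks were close to this for H4K5Ac, 93.9% in differentiated and 97.2% in undifferentiated cells. So they were for H3K4me1, 98.3% in differentiated and 96.7% in undifferentiated cells. For H3K9Ac they stood lower, at 77.0% in differentiated and 54.9% in undifferentiated cells. The 4 kept promoter sites outside H4K5Ac in both states were those of Ifi204 and Gm16532, of Pou2f2, a B-cell POU factor gene, and of Cxcr3, a chemokine receptor gene. H3K9Ac was gained at 35 sites and lost at 1, where 22.5% of all RUNX2 peaks gained and 0.482% lost it. Only 52 kept promoter sites were outside H3K9Ac in undifferentiated cells and could gain it, and 67.3% of these did (52.9 to 79.7), against 50.0% of all RUNX2 peaks outside it. The same share was 48.2% for lost promoter sites (38.8 to 57.8) and 62.3% for kept peaks away from promoters (60.2 to 64.5). Both intervals overlapped that of the kept promoter sites. H3K4me1 was gained at 30 and lost at 3 (1.98% and 0.395% of all RUNX2 peaks), and H4K5Ac was gained at 3 and lost at 3 (0.363% and 3.6%). H3K36me3, which begins inside gene bodies, covered 18.6% of the sites in differentiated and 19.4% in undifferentiated cells. It was gained at 35 sites and lost at 43, where 2.76% of all RUNX2 peaks gained and 4.02% lost it. Against lost promoter sites, the intervals of the difference for H4K5Ac, H3K9Ac and H3K36me3 included 0 in both states. For H3K4me1 the kept promoter sites were higher by 1.20 points in differentiated cells (0.0720 to 2.13) and by 1.84 points in undifferentiated cells (0.0917 to 3.38).

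The regions over the kept promoter sites differed in width between the states for 3 of the 5 marks, and those over lost promoter sites differed the same way. Where H3K9Ac covered a site in both states, its region was wider in differentiated cells at 770 of 879 sites, with medians of 4595 bp in differentiated and 3672 bp in undifferentiated cells. H3K4me3 regions were narrower in differentiated cells at 433 of 640 sites, with medians of 2755 bp in differentiated and 3538 bp in undifferentiated cells. H4K5Ac regions were narrower at 708 of 922 sites, with medians of 6341.5 bp in differentiated and 8618 bp in undifferentiated cells. H3K4me1 regions were wider in differentiated cells at 436 sites and narrower at 452, and H3K36me3 regions wider at 65 and narrower at 73. Over lost promoter sites the median H3K9Ac region was 4293 bp in differentiated and 3584 bp in undifferentiated cells. Their median H3K4me3 region was 2742.5 bp in differentiated and 3416 bp in undifferentiated cells, and their median H4K5Ac region 5448 bp in differentiated and 7656 bp in undifferentiated cells. Widths depend on the depth and enrichment of each library, which are unknown. Over the whole lists the median H3K4me3 region was 2416.5 bp in differentiated and 2865.5 bp in undifferentiated cells. The median H3K9Ac region was 2910 bp in differentiated and 2891 bp in undifferentiated cells, and the median H4K5Ac region 4408 bp in differentiated and 4472 bp in undifferentiated cells. The part of depth in these differences was not tested.

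**Figure D3:**
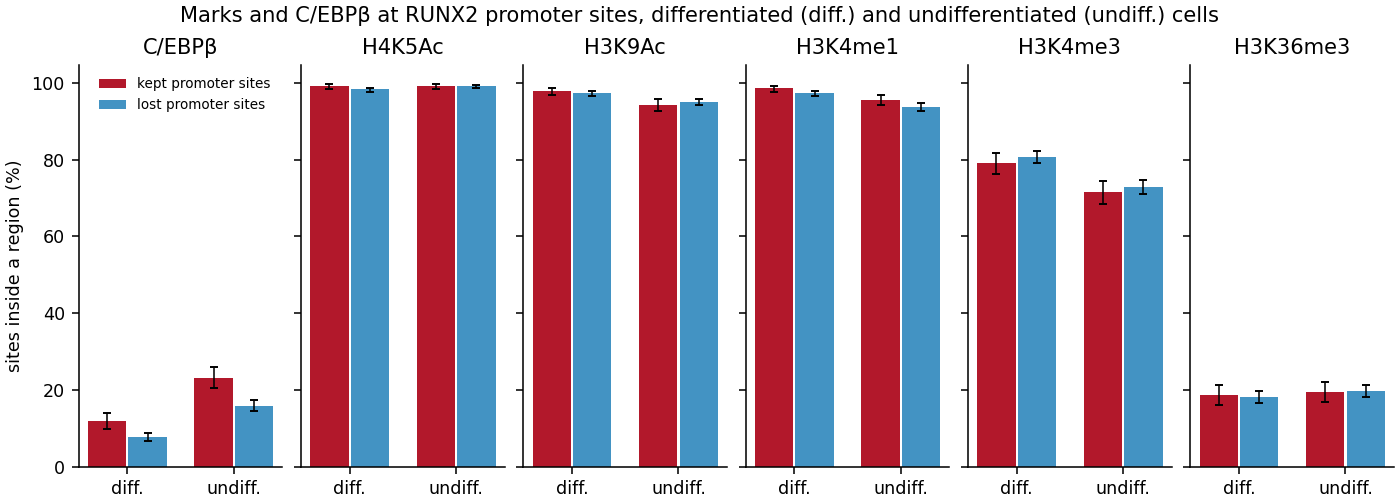
Share of kept (red) and lost (blue) promoter sites inside a peak or region of each antibody (y axis, percent) in differentiated and undifferentiated cells (x axis), with exact 95% intervals. Kept sites are above lost sites for C/EBPβ in both states, at 11.8% against 7.58% in differentiated cells and 23.2% against 15.9% in undifferentiated cells.

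C/EBPβ, a basic leucine zipper factor, was at more of the kept than of the lost promoter sites in each state. In differentiated cells 110 kept promoter sites, 11.8%, overlapped a C/EBPβ peak, against 7.58% of lost promoter sites, a difference of 4.22 points (95% interval 1.99 to 6.67). In undifferentiated cells 216 did, 23.2%, against 15.9% of lost promoter sites, a difference of 7.29 points (4.28 to 10.4). Kept peaks away from promoters had C/EBPβ at 25.8% in differentiated and 45.4% in undifferentiated cells. Between the states, 22 kept promoter sites gained C/EBPβ and 128 lost it, where 2.68% of all RUNX2 peaks gained and 18.9% lost it. The 128 were 59.3% of the kept promoter sites that had C/EBPβ in undifferentiated cells (52.4 to 65.9), and the same share among lost promoter sites was 58.7%. The C/EBP motif itself was at 5.04% of kept and 5.62% of lost promoter sites.

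H3K4me3, the mark of active starts, covered 79.1% of kept promoter sites in differentiated cells and 71.6% in undifferentiated cells. Lost promoter sites stood at 80.8% in differentiated and 72.9% in undifferentiated cells, and the differences of -1.76 points (-4.89 to 1.22) in differentiated cells and -1.30 points (-4.76 to 2.05) in undifferentiated cells were within counting error. Of the 932 sites 640 had the mark in both states, 97 in differentiated cells only, 27 in undifferentiated cells only and 168 in neither. Among sites outside the mark in undifferentiated cells, 36.6% of kept (30.8 to 42.7) and 41.8% of lost promoter sites (37.9 to 45.7) gained it. Of all RUNX2 peaks, most of them away from promoters, 3.52% gained and 4.26% lost it. Of all protein-coding genes 40.1% had it within 1 kb of a start in differentiated and 35.0% in undifferentiated cells. The 168 sites without it had another make-up. Of them 21.4% were CpG-rich, against 77.8% of the 640, and 31.0% held TGTGGTT, against 12.8% of the 640.

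Sequence went with H3K4me3 across the kept promoter sites. The 552 CpG-rich sites without TGTGGTT had it at 92.2% in differentiated and 83.5% in undifferentiated cells. The 54 CpG-rich sites with the motif stood at 92.6% in differentiated and 88.9% in undifferentiated cells. The 225 CpG-poor sites without the motif stood at 57.8% in differentiated and 52.9% in undifferentiated cells. The CpG-poor sites with it stood at 47.5% in differentiated (37.5 to 57.7) and 38.6% in undifferentiated cells (29.1 to 48.8). Distance went the same way. Within 100 bp of a start, 81.3% of 427 sites were CpG-rich and 86.4% had H3K4me3 in differentiated cells, whereas more than 500 bp away 28.0% of 132 sites were CpG-rich and 58.3% had the mark. The motif was at 14.8% of the near and 25.0% of the far sites.

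The sites touched 999 protein-coding genes, 4.49% of the 22225 gene symbols, and a further 2317 genes (10.4%) had only lost promoter sites. Among the genes with any RUNX2 promoter site 30.1% had a kept one (95% interval 28.6 to 31.7). Counts over all genes of a list below stand beside that 4.49%, and counts over its genes with any RUNX2 promoter site beside the 30.1%. The lists and the sites were both chosen with results of these data in view.

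All 3 Runx genes were in the set, out of 20 genes of the RUNX family and its co-regulators (15.0%). They were 60.0% of the 5 with any RUNX2 promoter site (95% interval 14.7 to 94.7), an interval that includes the 30.1% of all genes. Tle3 and Tle4, which encode Groucho corepressors, had only lost promoter sites. Runx2 had its kept promoter site inside the gene, 15 bp upstream of an inner start, with H3K4me3 in both states and a C/EBPβ peak in differentiated cells only. H3K36me3 covered 91.7% of the Runx2 gene body in differentiated and 78.8% in undifferentiated cells. Runx3 had its site 155 bp upstream of its start, inside H3K4me3 in differentiated cells only, with C/EBPβ in undifferentiated cells only. Its gene body was covered by H3K36me3 over 94.3% in differentiated and 49.0% in undifferentiated cells. Runx1 was the only gene with 3 kept promoter sites. The site with the paired motif, at the outermost start, was outside H3K4me3 in both states, and the other 2, at inner starts, were inside it in both. H3K36me3 covered 41.0% of Runx1 in differentiated and 41.9% in undifferentiated cells.

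Of 30 genes of bone matrix and mineralisation 5 (16.7%) had a kept promoter site and 4 only lost ones, so 55.6% of the 9 with any site kept one (95% interval 21.2 to 86.3). Col1a2, one of the chains of type I collagen, had a site 88 bp downstream of its start, inside H3K4me3 in both states, and 7 RUNX2 peaks in differentiated and 12 in undifferentiated cells had their nearest start at this gene. At Spp1 the site was 122 bp upstream of the start, and H3K4me3 covered it in differentiated cells only. H3K36me3 covered 96.1% of Spp1 in differentiated and 90.4% in undifferentiated cells, so the gene body held that mark in both states. Fn1, encoding fibronectin, Mgp, a calcification inhibitor, and Thbs1, a matricellular protein gene, had H3K4me3 at their sites in both states. C/EBPβ was at the Fn1 site in differentiated cells only and at the Mgp site in undifferentiated cells only. Col1a1, Dmp1, Ogn and Lum had only lost promoter sites.

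Among 29 osteoblast transcription factor genes, Runx2, Zeb2 and Rarg had kept promoter sites, 10.3% of the list and 42.9% of the 7 with any site (9.90 to 81.6). Zeb2 encodes a zinc-finger repressor of the epithelial programme, and Rarg a retinoic acid receptor that had 2 kept sites. Atf4, Snai2 and Hes1 were among those with only lost ones. Of 38 genes of Wnt, BMP and TGFβ signalling 6 had a kept promoter site, 15.8% of the list and 54.5% of the 11 with any site (23.4 to 83.3). These were the Frizzled receptor genes Fzd2 and Fzd7, the ligand gene Wnt10b, the shared SMAD gene Smad4, the receptor gene Tgfbr1, and Ltbp1. All 6 had H3K4me3 in differentiated cells, and only the Ltbp1 site was without it in undifferentiated cells. Ltbp1 kept C/EBPβ in both states, and Fzd2 had it in undifferentiated cells only.

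The cytoskeleton and focal adhesion list gave the most genes among the bone lists, 12 of 50 (24.0%) with a kept promoter site and 11 with only lost ones. Of the 23 with any site 52.2% kept one (30.6 to 73.2). Actb, Tpm1, Myh9, Zyx, Tln1, Lpp and Sdc4, which encode actin, tropomyosin, non-muscle myosin, adhesion proteins and a syndecan, had H3K4me3 at their sites in both states. Mylk, the myosin light chain kinase gene, Itgb5, an integrin gene with 2 kept sites, Lmna and Tns1, the tensin gene, had none in either state, and all these sites were CpG-poor. Ilk, the integrin-linked kinase gene, had 2 kept sites, 1 with H3K4me3 in both states and 1 with it in differentiated cells only. H3K36me3 covered 54.8% of Tns1 in differentiated and 22.6% in undifferentiated cells, and C/EBPβ was at its site in both states.

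Collagen modification and secretion had 4 of 29 genes (13.8%) with a kept promoter site and 8 with only lost ones, so 33.3% of the 12 with any site kept one (9.93 to 65.1). Serpinh1, the collagen chaperone HSP47, and Fkbp10, a collagen prolyl isomerase, had H3K4me3 at their sites in both states. Loxl1, a lysyl oxidase that crosslinks elastin and collagen, had it in differentiated cells only, and Glt25d1, a collagen galactosyltransferase gene, in undifferentiated cells only.

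**Figure D4:**
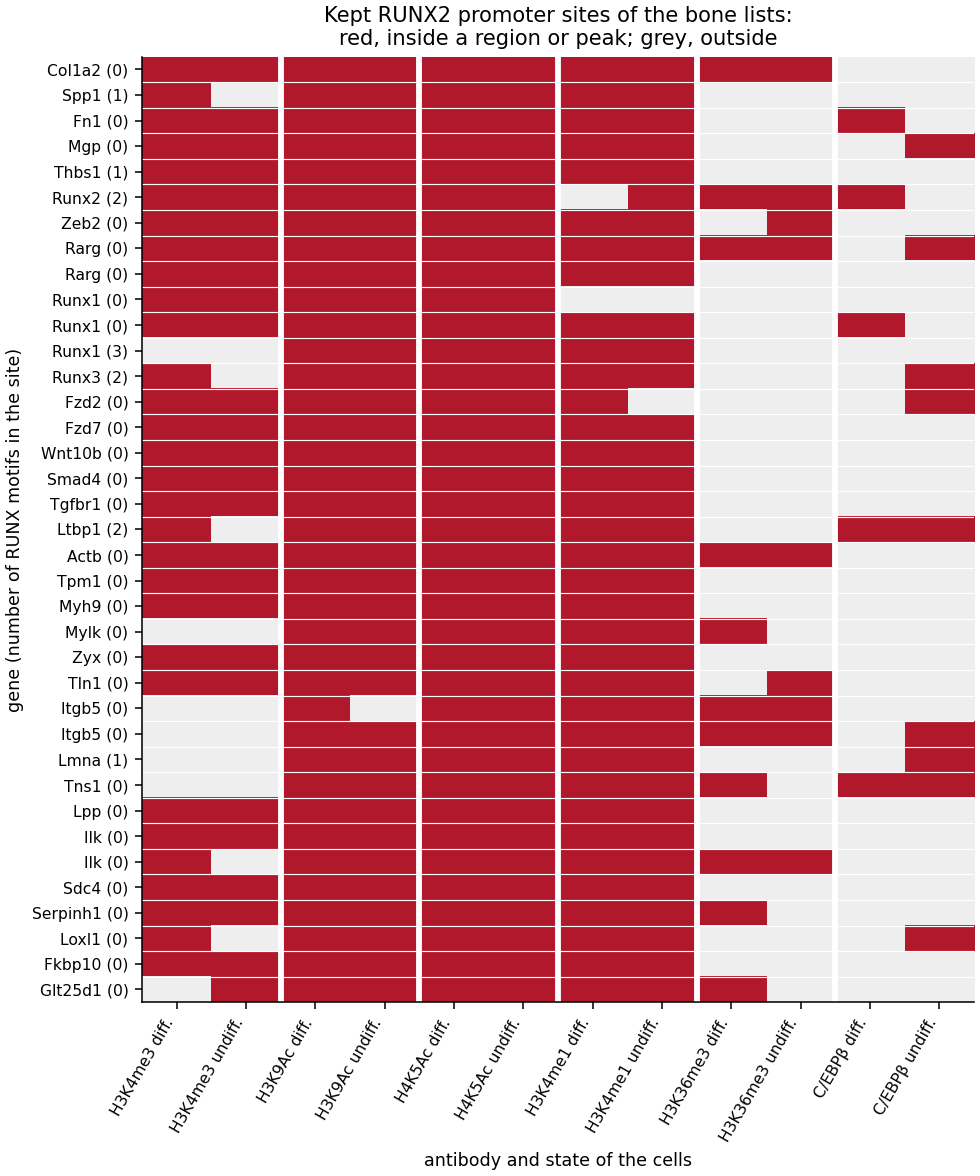
Kept promoter sites of the bone gene lists (rows; the number of RUNX motifs in brackets) by antibody and state (columns; diff. left of undiff. in each pair). Red is inside a peak or region and grey is outside. All 37 sites are inside H4K5Ac and H3K9Ac in differentiated cells, 30 are inside H3K4me3 in differentiated and 26 in undifferentiated cells, and C/EBPβ is at 5 in differentiated and 9 in undifferentiated cells.

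The AP-1 list stood at the other end. None of its 18 genes had a kept promoter site within 1 kb and 8 had only lost ones, among them Fos, Fosl1, Fosl2, Jund and Atf3. With 8 genes the upper limit of the exact 95% interval on the kept share is 36.9%, which includes the 30.1% of all genes. For DNA replication 1 of 15 genes with a promoter site kept it, 6.67% (0.169 to 31.9), the polymerase subunit gene Pold1. That interval also includes the 30.1%, and the 1 gene was 4.0% of the 25 in the list, beside 4.49% of all genes. Mcm2 to Mcm7, Pcna, Orc1, Rrm1 and Rrm2 had only lost ones. The replication-dependent histone genes had 0 kept and 4 with only lost promoter sites, among 67 genes. The upper limits on the kept share were 5.36% of the 67 and 60.2% of the 4, which include the 4.49% and the 30.1%.

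Lists of growth and basic cell functions were mixed. Of cytosolic ribosomal protein genes 12 of 80 had a kept promoter site and 20 only lost ones, and the kept ones included Rpl10a, Rpl13a, Rpl18, Rpl21, Rpl22 and Rpl27. Of 50 splicing factor genes 7 had a kept promoter site and 21 only lost ones, and of 58 translation initiation factor genes 5 kept and 18 only lost. Oxidative phosphorylation had 6 genes kept and 14 only lost of 84, and the proteasome 3 kept and 7 only lost of 43. Of the genes of these 5 lists with any site, the kept share lay between 21.7% for translation initiation (7.46 to 43.7) and 37.5% for ribosomal proteins (21.1 to 56.3). Of 28 cell cycle genes 2 had a kept promoter site and 3 only lost ones, and the 2 were Ccnd1 and Cdk4, the G1 cyclin and its kinase. Of 11 genes of the coupling between osteoblasts and osteoclasts, 3 had a kept promoter site, those of the cytokines Csf1 and Il6 and of Sema4d. They were 60.0% of the 5 with any site (14.7 to 94.7). Tnfrsf11b and Ccl2 had only lost ones. Among 10 housekeeping genes Actb and Tbp had kept promoter sites, 50.0% of the 4 with any site (6.76 to 93.2), and Ywhaz was among those with only lost ones. The intervals of the cell cycle, coupling and housekeeping lists all include the 30.1% of all genes. Of the 12 vitamin D genes 1 had any RUNX2 promoter site, and that site, within 1 kb of its start, was lost.

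**Figure D5:**
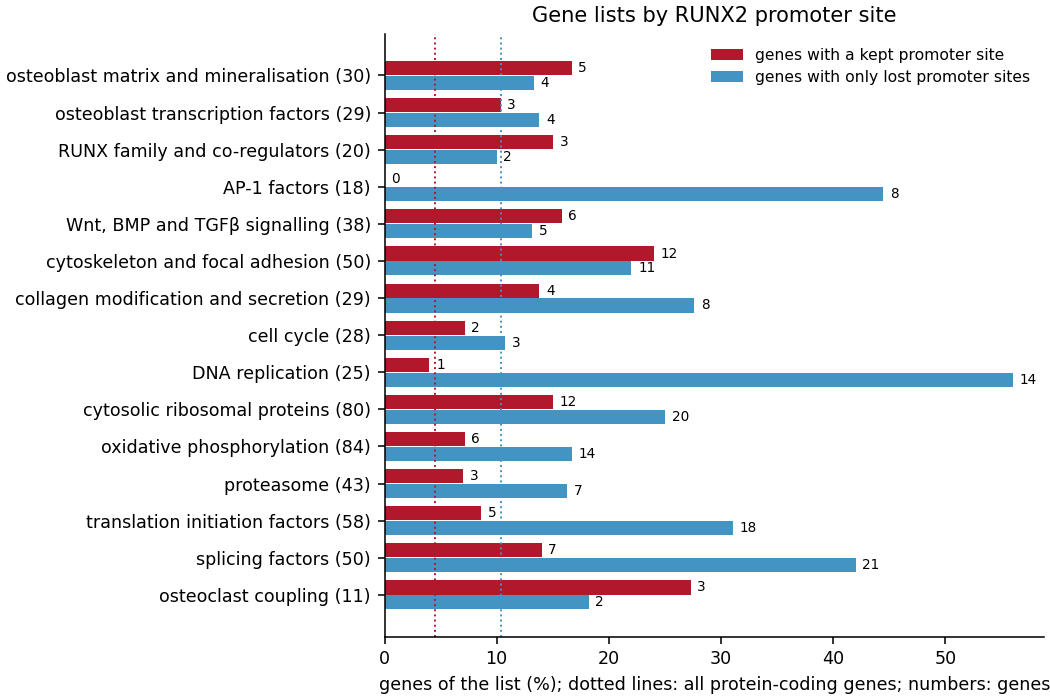
Share of the genes of each list (y axis, number annotated in brackets) with a kept promoter site (red) or with only lost promoter sites (blue), in percent (x axis), for lists with 5 or more such genes. Numbers at the bars are genes, and the dotted lines are the shares of all protein-coding genes, 4.49% kept and 10.4% only lost. AP-1 factors and DNA replication have 0 and 1 gene with a kept site, against 8 and 14 with only lost ones. Among genes with any RUNX2 promoter site, the intervals on both kept shares include the 30.1% of all genes.

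For the lists of other cell types, Matn3, a cartilage matrix gene, was the 1 gene of 12 chondrocyte genes with a kept promoter site, and its site was outside H3K4me3 in both states. No osteocyte, adipocyte, muscle, haematopoietic, endothelial or neural gene of the lists had a kept promoter site. Few of them had a RUNX2 promoter site at all, 3 of 8 osteocyte genes, 1 of 12 adipocyte and 1 of 9 endothelial genes, and none of the muscle, haematopoietic and neural genes. The upper limits of the intervals on the kept shares of these 6 lists were 26.5% to 36.9% of the list, which include the 4.49% of all genes, so a lower share was not detectable.

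Most of the 999 genes carried H3K36me3, a mark of transcribed gene bodies, in both states. Any H3K36me3 was present in 92.3% of them in differentiated and 92.4% in undifferentiated cells. The median share of the gene body covered was 90.8% in each state. For genes with only lost promoter sites it was 90.7% in differentiated and 90.3% in undifferentiated cells, and for all genes 0.448% in differentiated and 1.26% in undifferentiated cells. H3K36me3 coverage was higher by 20 points or more in differentiated cells in 34 of the 999 genes, 3.40% (2.37 to 4.72), and lower by as much in 19, 1.90% (1.15 to 2.95). Over all protein-coding genes 2.28% were higher and 2.23% lower by that much, and of genes with only lost promoter sites 3.37% were higher and 2.11% lower. Runx3 and Tns1 were among the 34. Panx3, a channel protein gene of bone and cartilage chosen here after its value was seen and 1 of the 19, had 0% covered in differentiated and 83.7% in undifferentiated cells.

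Kept promoter sites had a neighbouring RUNX2 peak at a share above that of lost ones and below that of kept peaks away from promoters, with intervals that did not overlap. The neighbours were counted in the same RUNX2 lists that set the kept and lost classes, so these shares are a description and not independent support. A differentiated peak beside a lost promoter site that did not touch it counted as another peak, as at the 110 within 500 bp. Another RUNX2 peak was within 50 kb of 47.0% of them in differentiated cells, against 40.5% of lost promoter sites, a difference of 6.54 points (2.77 to 10.3). In undifferentiated cells it was so for 70.7% of kept and 64.1% of lost promoter sites, a difference of 6.61 points (3.05 to 10.1). Kept peaks away from promoters stood at 60.3% in differentiated (58.7 to 61.9) and 77.3% in undifferentiated cells (75.9 to 78.7), and all RUNX2 peaks at 51.1% in differentiated and 72.7% in undifferentiated cells. The mean number of such peaks per kept promoter site was 0.836 in differentiated and 1.78 in undifferentiated cells. The genes with a kept promoter site and the most RUNX2 peaks by nearest start were Mylk, with 9 in differentiated and 15 in undifferentiated cells, and Ltbp1, with 5 in differentiated and 13 in undifferentiated cells. In differentiated cells 4930558K02Rik had 5, Col1a2 7 and Gse1 4, and in undifferentiated cells each had 12. Rara, a retinoic acid receptor gene, had 3 in differentiated cells and Rbpj, the nuclear effector of Notch, 8, and in undifferentiated cells both had 11. In differentiated cells Cdk14 had 8, Plec 5 and Tiam2 4, and in undifferentiated cells each had 10.

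Of the 999 genes, 959 had 1 kept promoter site, 39 had 2 and Runx1 had 3. Besides Itgb5, the genes with 2 and the most RUNX2 peaks were Plec, which encodes the cytolinker plectin, the angiomotin relative Amotl2, Cuedc1, the filopodial myosin gene Myo10, Fam110b, Plekhf1, Snd1 and Susd1. Both sites were outside H3K4me3 in both states at Cuedc1, Fam110b, Itgb5 and Susd1. At Plec and Amotl2 both sites were inside an H3K4me3 region in undifferentiated cells, and 1 of each pair was outside in differentiated cells.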

How the data were processed

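Peak lists from ChIP-seq in MC3T3-E1 cells were analysed, 14 in all, 1 per antibody and state. The submitters' processing notes name Bowtie, HOMER and the mm9 build, with tool versions not given in the sources used here. Biological replicates were merged by the authors, per the labels, and each peak name records at least 2 merged peaks, so depth is unknown. The deposited score of each peak is the authors' value. It was 0 for all RUNX2 and C/EBPβ peaks and was used only to rank mark regions within a list. The 2 input samples were not used here, and the differentiated one is labelled with 100 nM 1,25-dihydroxyvitamin D3. The state of the differentiated H3K36me3 sample was read from its title, because the words for the 15 days are missing from its cell line label and stand inside its treatment label, which otherwise spells the ethanol vehicle. The protocol writes H3K5Ac where the antibody label has H4K5Ac, which is used here.

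Starts came from GENCODE vM1 (22367 protein-coding genes, 22225 symbols, 70051 starts) on the mm9 assembly, and sequences were read from that genome. A site was inside a region when they overlapped by at least 1 bp. Gained and lost mean outside or inside in undifferentiated cells with the opposite in differentiated cells. RUNX2 peaks were assigned to the gene with the nearest start within 100 kb. Shares have exact Clopper-Pearson 95% intervals and differences Newcombe intervals, for counting error only, since peaks are not replicates. Overlap, distance and motif steps were tested on simulated data. Python 3.11.15, numpy 2.4.6, pandas 2.3.3, scipy 1.17.1 and pysam 0.24.0 were used.

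Genes named were those of the bone lists with a kept promoter site, the 10 with most kept sites, the 10 with most RUNX2 peaks, sites with 3 or more TGTGGTT, sites outside H4K5Ac, and up to 6 per further list. Others, including genes with only lost sites, are examples, and some items that these rules name are not reported here. The members and lists were chosen with earlier results of these data known. Splits of the members by distance, H3K4me3 and region width, and the paired motif, were added after values had been seen. Alternatives varied the overlap, promoter width, starts, score, motif and gene assignment.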

Additional observations from a re-analysis of the deposited data

How the results depend on the processing

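Of 132 alternative values of 28 results, 83 stayed within the interval of the value above, the 10 counts of sites and genes stayed within 1.5 times it, and 39 moved outside the interval. Both H3K4me3 differences between kept and lost promoter sites, with intervals including 0, changed sign with outermost starts. The 75 alternative values of the gene lists stayed within their intervals, which are wide for lists this short, but 6 moved by over 1.5 times or away from 0. Within 2.5 kb the share of list genes with a kept promoter site was 17.9% for cell cycle (7.14% above), 25.0% for chondrocyte genes (8.33%), 16.7% for vitamin D genes (0) and 5.56% for AP-1 (0). With an overlap of over 50% with the differentiated peak it was 8% for splicing factors (14.0%) and 5.17% for translation initiation factors (8.62%). With promoters within 500 bp, CpG-rich sites were 71.1%, H3K4me3 82.5% in differentiated cells and H3K9Ac 96.1% in undifferentiated cells. Within 2.5 kb, CpG-rich sites were 54.5% and TGTGGTT 20.8%, C/EBPβ in undifferentiated cells 26.4%, H3K4me3 69.5% in differentiated and 65.3% in undifferentiated cells, H3K9Ac 96.2% and 90.0%, and H3K36me3 23.1% and 24.2%. With only the outermost start of each gene, CpG-rich sites were 73.0%, TGTGGTT 14.0%, upstream sites 65.7%, H3K4me3 86.5% in differentiated and 77.5% in undifferentiated cells, H3K9Ac 99.1% and 97.3%, and H3K36me3 14.0% and 15.3%. With the higher-scoring 50% of regions, in differentiated and undifferentiated cells, H4K5Ac covered 89.5% and 93.3%, H3K9Ac 92.9% and 76.3%, H3K4me1 92.1% and 82.9%, H3K4me3 48.5% and 43.1%, and any H3K36me3 84.5% and 82.9% of genes. A centre inside the region gave H3K36me3 16.7% in undifferentiated cells. An overlap of over 50% with C/EBPβ gave 8.80% in differentiated and 15.6% in undifferentiated cells, and centres within 500 bp gave 14.7% and 27.8%. TGTGGT gave 32.2%, and TGTGGTT within 50 bp of the centre 12.1% and within 250 bp 22.0%. The cause of these moves, beyond the changed set of sites, regions or letters, was not tested. The differences between kept and lost promoter sites in TGTGGTT, C/EBPβ and CpG-rich sequence kept their direction, with intervals that left out 0, under the 4 alternatives run on them. That in H3K4me3, with an interval including 0 above, was -4.20 points in differentiated cells (-7.36 to -1.11) within 2.5 kb, and with outermost starts it was 0.480 points in differentiated and 0.439 points in undifferentiated cells.

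No paired analysis was possible because each antibody and state had 1 merged list, and for the same reason no replicate was left out. Peak lists have no reads, so a site absent from a list cannot be told apart from one that the depth of that library did not reach, nor lost from weaker binding. The RUNX2 list of differentiated cells was the shorter one.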
